A study of Homo sapiens with 27 samples.

Results

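The genes described here are the clustered replication-dependent histone genes, measured in IMR90 human fibroblasts that were cycling, quiescent, senescent or stressed. A gene was taken as a member where its symbol was H2AC, H2BC, H3C or H4C followed by a number, or H1-1 to H1-6. The rule found 69 genes, of which 67 were listed in every file, among 60534 shared gene identifiers and 19310 protein-coding genes. The 67 comprised 6 genes of the linker histone H1, 15 of H2A, 18 of H2B, 13 of H3 and 15 of H4. By the RefSeq gene table for GRCh38.p14, 55 lay in the major cluster on chromosome 6, 9 in a cluster and 2 in a separate pair on chromosome 1, and H4C16 alone on chromosome 12. H2AC18 and H2AC19, the remaining genes of the rule, were listed only in the longer of the gene lists, at 0 to 1 counts.

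Core histones H2A, H2B, H3 and H4 form the octamer that DNA wraps around, and H1 binds the linker DNA between octamers. Their replication-dependent genes are transcribed mainly in S phase, under the coactivator NPAT, and most give mRNAs without a poly(A) tail that end in a stem-loop bound by the protein SLBP, so that histone output follows DNA synthesis. Some of these genes can also give polyadenylated mRNA in cells that have stopped dividing. Many variant histones from genes outside the clusters are made throughout the cell cycle.

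The study measured RNA from whole lysate, labelled as total RNA (RNA-seq), and ribosome-protected fragments (Ribo-seq, called footprints below) in wild-type IMR90 cells, an established human lung fibroblast line of fetal origin. Cycling cells (2 RNA and 3 footprint libraries) were subconfluent, and quiescent cells (3 and 3) had been held at contact inhibition. Senescence was induced with 15 Gy of ionizing radiation and harvest 10 days later (3 and 3), or with 3 treatments of 50 µM etoposide, a topoisomerase II poison, over 10 days (3 and 3). Stressed cells were cycling cells given 25 nM thapsigargin, an inhibitor of the endoplasmic reticulum calcium pump, for 3 h (2 and 2). Cells of every state were lysed with cycloheximide, a translation elongation inhibitor. The labels do not say whether replicates were separate cultures, so each p-value measures the spread between these libraries, which may be technical.

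Counts assigned to genes came to 20608930 to 57037578 per RNA library and 1934420 to 19978464 per footprint library. The thapsigargin libraries stood apart from the rest: 1.35 to 1.40% of their RNA reads were unmapped, against 27.8 to 40.6% in the other RNA libraries, and 65.2 to 66.9% of their footprint reads mapped to several places, against 19.8 to 31.9%. CPM below are counts per 1000000 counts of the library in the protein-coding genes that passed edgeR's low-count filter, scaled by its TMM factors. All 8 fibroblast markers examined exceeded 1 CPM in every RNA library. Summed epithelial, endothelial and leukocyte markers reached at most 0.790, 2.62 and 1.70 CPM. Genes of one histone family are nearly alike in coding sequence, and only reads with a single place were counted. Levels of members with close copies therefore miss reads shared between copies, and their split among copies is uncertain. Whether reads of one copy were assigned to another was not tested.

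The promoters of the members carried short motifs in family-specific combinations, and those of the genes on which the results below turn are shown first. RefSeq promoter sequence (GRCh38.p14) was found for 62 of the 67 members. The 250 bases before each start were searched on both strands for 6 motifs, and a match is a description of the letters only. TATAA, the TATA box, was present in 57 of 62 members and in 18.9% of 35116 promoters genome-wide, and CCAAT in 52 against 32.0%. CCAAT was found in 3 of 13 H4 promoters, whereas GGTCCG, a core of the site for the H4 regulator HINFP, was found in 12 of those 13 and in 9.43% of all promoters. The octamer ATTTGCAT, bound by POU factors such as OCT1, was in 26 members, 25 of them H2A or H2B genes, against 1.63% genome-wide. AAACACA, the H1 box, was in all 6 H1 genes, in no other member and in 4.82% of all promoters, and TTTCGCGC, an E2F-type site, in 11 members against 0.439%. The 200 bases before the start are given 5′ to 3′ on the gene's strand, with matches to any of these motifs, in either orientation, in capitals; where TATAA overlapped its own reverse complement both are capitalised. H2AC14 (chr6:27814778-27814977, minus strand) and H2BC14 (chr6:27814822-27815021, plus strand) showed the deepest losses and are divergent genes with 244 bases between their starts, so that their 300-base windows in the promoter table (250 bases before and 50 after each start) share 256 bases. H2AC6 (chr6:26123972-26124171, plus strand) kept its RNA, H3C10 (chr6:27809851-27810050, plus strand) lost more footprints than RNA, H4C9 (chr6:27139082-27139281, plus strand) lost most of its RNA, and H4C5 (chr6:26204410-26204609, plus strand) differed between the senescence inducers.
H2AC14: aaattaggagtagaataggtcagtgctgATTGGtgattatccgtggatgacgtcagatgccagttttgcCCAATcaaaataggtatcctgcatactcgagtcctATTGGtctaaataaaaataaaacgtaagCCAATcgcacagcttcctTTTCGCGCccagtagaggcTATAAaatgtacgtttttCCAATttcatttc
H2BC14: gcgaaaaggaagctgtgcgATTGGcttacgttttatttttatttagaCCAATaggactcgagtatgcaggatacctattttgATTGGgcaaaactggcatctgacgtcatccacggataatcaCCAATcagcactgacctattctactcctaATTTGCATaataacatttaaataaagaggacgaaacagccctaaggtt
H2AC6: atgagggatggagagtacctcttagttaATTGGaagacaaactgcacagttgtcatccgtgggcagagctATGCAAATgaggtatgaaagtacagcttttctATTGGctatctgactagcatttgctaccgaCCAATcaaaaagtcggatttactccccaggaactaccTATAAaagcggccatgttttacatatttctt
H3C10: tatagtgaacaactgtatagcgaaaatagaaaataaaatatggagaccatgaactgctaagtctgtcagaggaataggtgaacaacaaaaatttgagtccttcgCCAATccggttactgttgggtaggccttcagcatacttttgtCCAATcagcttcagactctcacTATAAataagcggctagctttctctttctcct
H4C9: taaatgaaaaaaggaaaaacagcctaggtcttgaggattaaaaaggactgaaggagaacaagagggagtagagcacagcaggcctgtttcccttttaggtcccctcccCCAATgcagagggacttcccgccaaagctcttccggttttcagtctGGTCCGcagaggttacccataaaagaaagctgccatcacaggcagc
H4C5: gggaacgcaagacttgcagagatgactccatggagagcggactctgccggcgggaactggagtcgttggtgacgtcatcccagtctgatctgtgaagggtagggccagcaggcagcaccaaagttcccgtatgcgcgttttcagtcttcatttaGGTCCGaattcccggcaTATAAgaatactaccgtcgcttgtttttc

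Summed over all members, histone RNA in both kinds of senescent cell stood at 24.9% of its cycling level or less. The summed RNA of the 67 members was 6766 and 5214 CPM in the cycling libraries, between 3273 and 5242 CPM in the quiescent, 1470 to 1533 CPM in the irradiated and 1270 to 1320 CPM in the etoposide-treated libraries. Expressed against the cycling mean, this was 24.9% after irradiation, 21.6% after etoposide and 69.6% in quiescence. No senescent library reached the lowest cycling or quiescent one, whereas cycling and quiescent libraries overlapped. Whether fewer cells were in S phase or each cell held less histone RNA cannot be told apart in bulk samples.

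Of the 5 families, H3 kept the smallest share of its summed RNA with either inducer; H4 and H2A kept the largest after irradiation, and H2A after etoposide. The H3 sum was 907 ± 173 CPM (SD, n = 2) in cycling, 562 ± 212 CPM (n = 3) in the quiescent, 91.8 ± 6.06 CPM (n = 3) in irradiated and 64.2 ± 3.75 CPM (n = 3) in etoposide-treated cells, the last being 7.07% of cycling. The H1 sum was 25.5% of cycling in irradiated and 24.0% in etoposide-treated cells, and the H2B sum was 22.7% and 22.6%. The H2A sum was 32.2% and 31.1%, and the H4 sum 32.5% and 20.9%. Footprint sums, which like the RNA sums were not tested, stood over all members at 26.2% of cycling after irradiation and 16.3% after etoposide, and for H3 at 8.73% and 4.47%.

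**Figure D1:**
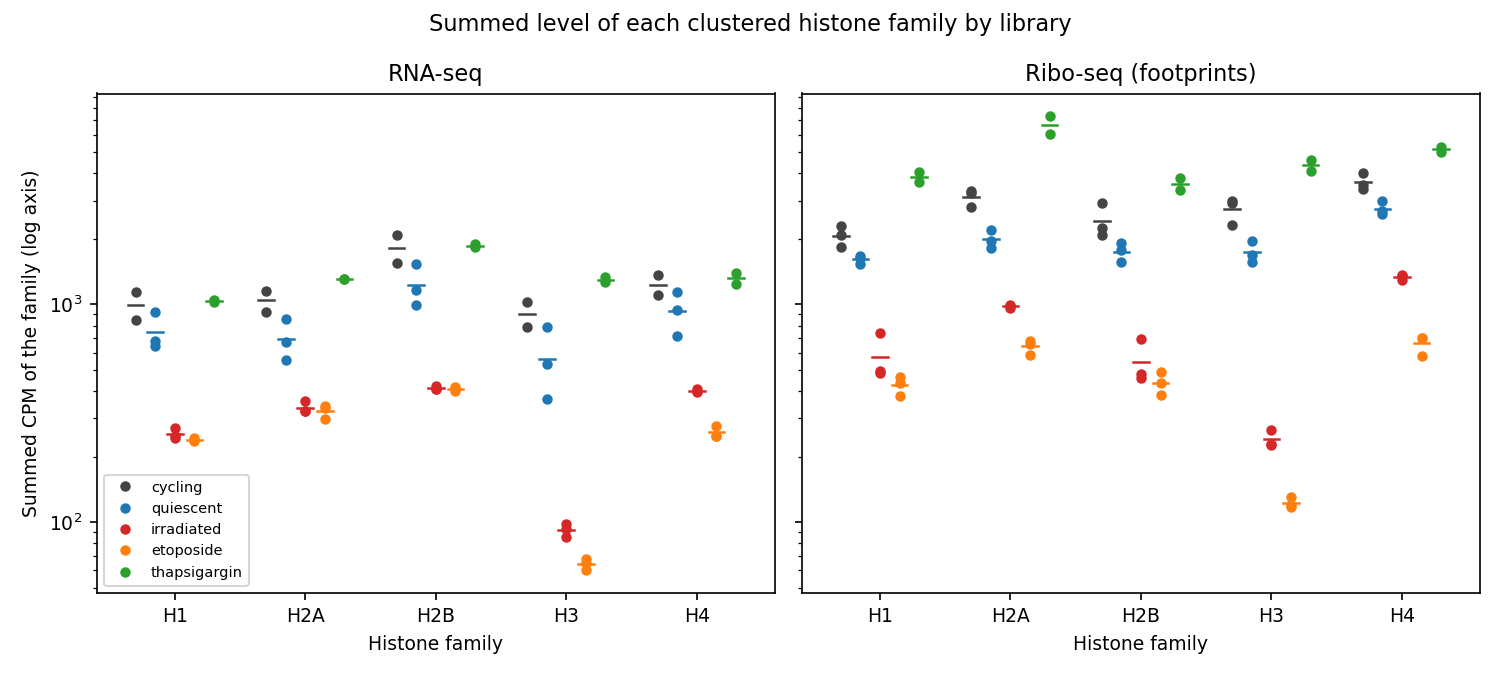
Summed CPM of each histone family (log axis), RNA-seq and Ribo-seq in separate panels, with points for libraries and short lines for the mean of each of the 5 states. The irradiated and etoposide-treated libraries lie below every other library in each family; summed RNA over all members was 1270 to 1533 CPM in the senescent against 3273 to 6766 CPM in the cycling and quiescent libraries.

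Which single genes changed in senescent cells was tested with edgeR's quasi-likelihood test on all 13293 protein-coding genes with enough RNA counts, with Benjamini-Hochberg adjustment. Of the 67 members 57 could be tested; the other 10 had at most 7 counts in any RNA library and included H1-6, H2AC1 and H2BC1, which are known as testis genes. After irradiation 53 members fell (18.8% of all tested genes did), 1 rose (16.2% did) and 3 did not pass, with a median log2 fold change of -3.01 against 0.03 over all genes. After etoposide 54 fell (17.8%), 2 rose (16.8%) and 1 did not pass, with a median of -3.80 against 0.00.

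Of the linker histones all 5 tested genes fell, with a median of -3.01 after irradiation and -4.00 after etoposide. H1-5 RNA was 326 and 224 CPM in cycling, 155, 242 and 139 in the quiescent, 14.2, 13.7 and 14.7 in irradiated and 10.98, 9.32 and 6.82 in etoposide-treated libraries. Its senescent libraries were all below the others, and the log2 fold change was -4.27 ± 0.25 (SE) after irradiation and -4.93 ± 0.25 after etoposide (adjusted p = 9.32e-08 and 1.76e-08, edgeR). H1-3 fell to 16.9 ± 1.82 and 7.21 ± 1.09 CPM (n = 3 each) from 182 ± 45.9 (n = 2), and H1-4 to 63.4 ± 5.51 and 30.9 ± 4.60 from 247 ± 35.3. H1-2 changed least in this family: its RNA was 296 and 226 CPM in cycling, 149, 169 and 149 in irradiated and 188, 193 and 188 in etoposide-treated libraries, a log2 fold change of -0.74 ± 0.14 and -0.46 ± 0.14 (adjusted p = 0.000928 and 0.0197, edgeR). Without cycling RNA replicate 1 the etoposide change was -0.26 and did not pass (adjusted p = 0.296).

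Of the 12 H2A genes tested 10 fell with each inducer, by a median of -3.15 and -3.84. H2AC14 (chromosome 6, 27814302 to 27814777), one of the members with the deepest loss, had 66.7 and 48.6 CPM in cycling, 30.9, 43.2 and 30.1 in the quiescent, 2.09, 1.68 and 1.45 in irradiated and 0.874, 0.767 and 1.02 in etoposide-treated libraries. The groups of cycling, quiescent, irradiated and etoposide-treated libraries did not overlap. The log2 fold change was -5.05 ± 0.22 and -6.01 ± 0.23 (adjusted p = 1.57e-08 and 2.99e-09, edgeR). The log2 fold changes were -2.76 and -3.38 for H2AC8, -3.65 and -4.36 for H2AC11 and -3.17 and -3.55 for H2AC13.

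H2AC6 (chromosome 6, 26124172 to 26124690), a core H2A gene known to give polyadenylated transcripts as well, stood out with RNA that did not fall. It had 204 and 170 CPM in cycling, 197, 192 and 174 in the quiescent, 204, 242 and 215 in irradiated and 262, 262 and 223 in etoposide-treated libraries. Every etoposide-treated library was above both cycling ones, and irradiated libraries reached down to the cycling range. The log2 fold change was 0.23 ± 0.12 after irradiation (adjusted p = 0.166) and 0.41 ± 0.13 after etoposide (adjusted p = 0.0220, edgeR); the latter did not pass without cycling replicate 2 (0.28, adjusted p = 0.231) or without etoposide replicate 1 or 2. H2AC25, of the distal chromosome 1 pair, had 12.01 and 12.09 CPM in cycling, 7.92, 10.4 and 7.66 in irradiated and 9.68, 9.23 and 8.31 in etoposide-treated libraries, and passed with neither inducer (log2 fold changes -0.47 ± 0.18 and -0.41 ± 0.18, adjusted p = 0.0538 and 0.0895, edgeR); it is named here after its values were seen.

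Every one of the 17 H2B genes tested fell with both inducers, by a median of -3.11 and -4.00. H2BC14 (chromosome 6, 27815022 to 27815489), the divergent neighbour of H2AC14, had 85.5 and 58.3 CPM in cycling, 32.7, 47.6 and 31.5 in the quiescent, 2.73, 2.42 and 1.81 in irradiated and 0.664, 0.974 and 1.13 in etoposide-treated libraries. No library of one of these states overlapped those of another. Its log2 fold change was -4.95 ± 0.26 and -6.26 ± 0.28 (adjusted p = 5.33e-08 and 8.26e-09, edgeR). H2BC12, whose RefSeq gene spans 8566 bases, changed least, with 239 and 178 CPM in cycling, 121, 134 and 122 in irradiated and 157, 154 and 140 in etoposide-treated libraries. Its log2 fold change was -0.73 ± 0.15 and -0.48 ± 0.15 (adjusted p = 0.00219 and 0.0286, edgeR); without cycling replicate 1 neither passed, at -0.51 (adjusted p = 0.0623) and -0.25 (adjusted p = 0.366). The log2 fold changes were -1.22 and -1.01 for H2BC21, -1.41 and -1.32 for H2BC4 and -2.15 and -2.34 for H2BC5.

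All 10 H3 genes tested fell with both inducers, by a median of -3.89 and -4.41. H3C2 had 176 and 138 CPM in cycling, 80.1, 138 and 53.4 in the quiescent, 8.34, 7.47 and 9.24 in irradiated and 7.62, 8.67 and 6.15 in etoposide-treated libraries, and H3C7 went from 149 ± 31.1 (n = 2) to 9.34 ± 1.40 and 6.91 ± 1.15 CPM (n = 3 each). H3C10, named here after its values were seen, kept more RNA: 86.8 and 70.1 CPM in cycling, 47.7, 68.0 and 31.2 in the quiescent, 10.8, 11.7 and 12.1 in irradiated and 9.93, 10.97 and 12.97 in etoposide-treated libraries. Its irradiated and etoposide-treated libraries overlapped, and the log2 fold change was -2.77 ± 0.25 and -2.80 ± 0.24 (adjusted p = 2.21e-06 and 1.49e-06, edgeR). H3C6 fell least, with log2 fold changes of -1.95 and -2.52, from 111 ± 13.9 to 28.7 ± 1.36 and 19.4 ± 2.66 CPM.

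Of the 13 H4 genes tested 11 fell after irradiation and 12 after etoposide, with medians of -1.96 and -2.84. H4C3 had 217 and 165 CPM in cycling, 35.3, 44.8 and 44.0 in irradiated and 26.6, 22.5 and 24.4 in etoposide-treated libraries. H4C9, named after its values were seen, had 48.9 and 39.3 CPM in cycling, 2.20, 2.15 and 1.61 in irradiated and 0.874, 0.767 and 1.08 in etoposide-treated libraries, with log2 fold changes of -4.47 ± 0.27 and -5.59 ± 0.29 (adjusted p = 1.15e-07 and 1.77e-08, edgeR). H4C5 had 309 and 273 CPM in cycling, 344, 346 and 251 in the quiescent, 180, 156 and 160 in irradiated and 71.2, 70.1 and 92.7 in etoposide-treated libraries. Cycling and quiescent libraries overlapped, while irradiated libraries lay between them and the etoposide-treated ones, at -0.82 ± 0.16 and -1.90 ± 0.16 (adjusted p = 0.00124 and 8.95e-07, edgeR). H4C8 fell, with log2 fold changes of -0.96 and -0.80, by counts of the gene's strand, but not after etoposide by counts that ignore strand (0.093, adjusted p = 0.733); over the 13 RNA libraries it had 48566 counts with strand and 24409 without. H4C16 on chromosome 12 was at 31.9 and 32.9 CPM in cycling, 23.0, 21.4 and 19.9 in irradiated (not passing, adjusted p = 0.0643) and 11.6, 14.9 and 18.2 in etoposide-treated libraries (-1.12 ± 0.23, adjusted p = 0.00242, edgeR). H4C14 rose with both inducers but from very few reads: it was at 0.183 and 0.259 CPM in cycling, 0.948, 0.469 and 0.904 in irradiated and 1.08, 1.95 and 0.917 in etoposide-treated libraries, 1.82 ± 0.64 and 2.58 ± 0.61 on the log2 scale (adjusted p = 0.0402 and 0.00533, edgeR). Without cycling replicate 1 neither change of H4C14 passed (adjusted p = 0.242 and 0.0767). Its change after irradiation, the only rise among members there, also did not pass with a replicate block (adjusted p = 0.0766) or without cycling replicate 2 (adjusted p = 0.107), irradiated replicate 1 (adjusted p = 0.103) or irradiated replicate 3 (adjusted p = 0.0947, edgeR).

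**Figure D2:**
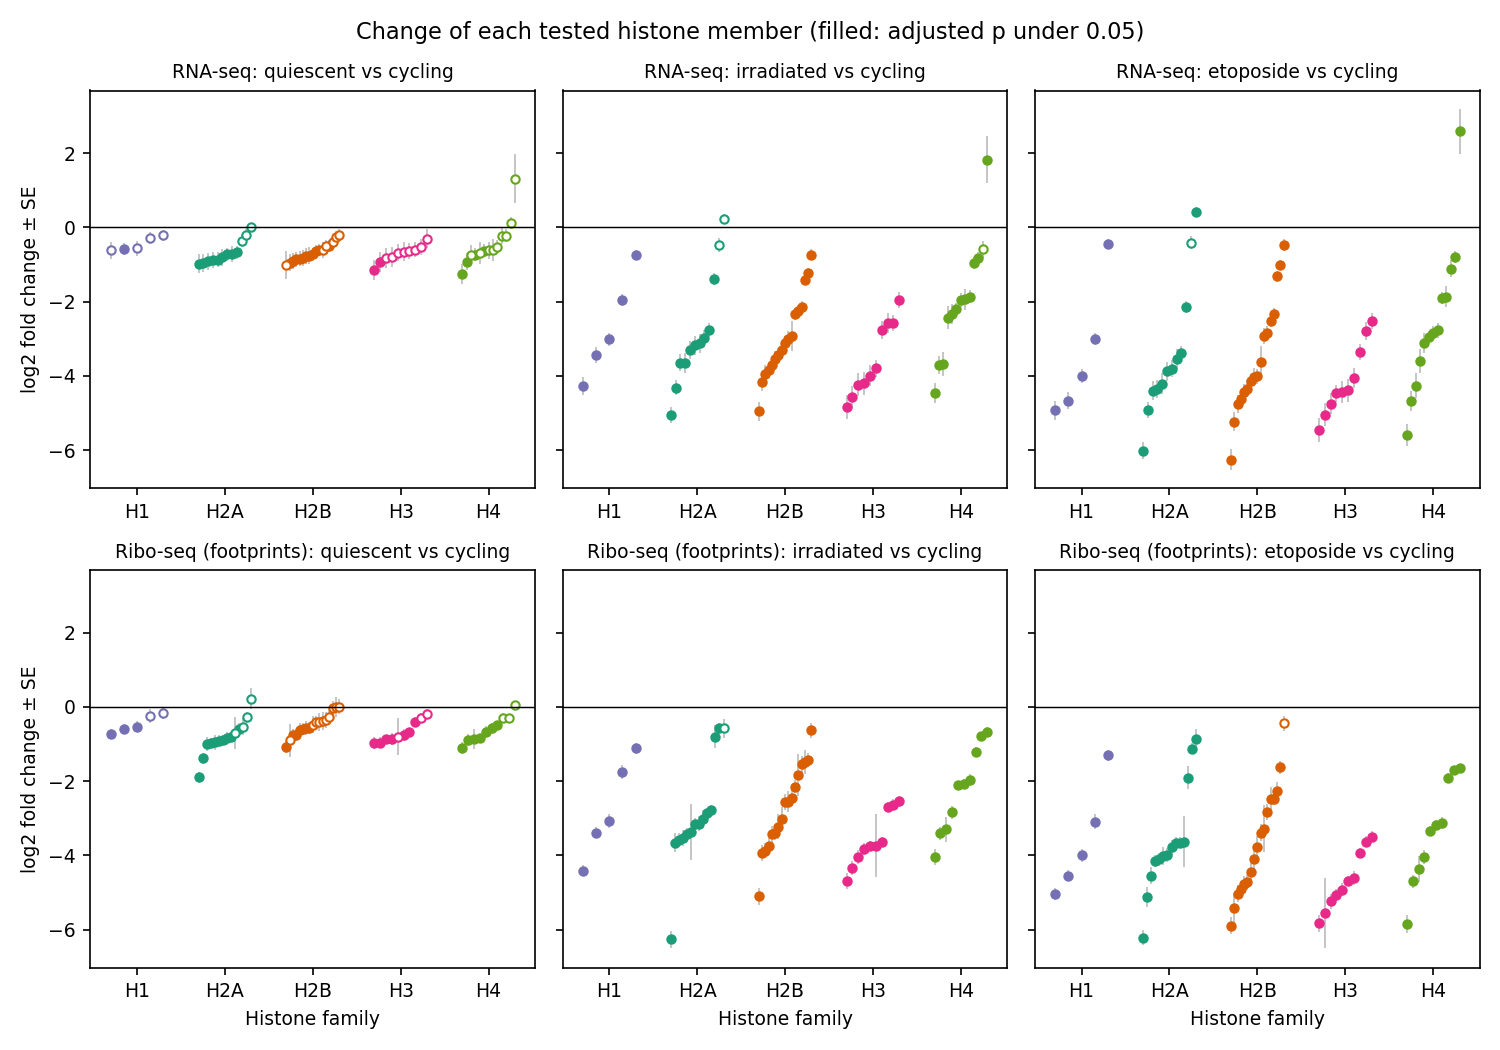
Log2 fold change against cycling cells of each tested member, with bars for the standard error, grouped by family and ordered by size within it; RNA-seq is in the upper and Ribo-seq in the lower panels, for quiescent, irradiated and etoposide-treated cells, and filled points passed at an adjusted p under 0.05 (edgeR). Most members lie below 0 in quiescent cells (RNA median -0.66), and the medians are lower in senescent ones (RNA -3.01 and -3.80). H2AC6 and H4C14 are the points above 0 in RNA after irradiation and etoposide.

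Members known to give polyadenylated transcripts had smaller median changes in RNA than the others. The list of 7 (H1-2, H2AC6, H2BC4, H2BC5, H2BC12, H2BC21 and H4C16), chosen with earlier results of these data known, had a median of -0.74 after irradiation (5 lower) and -1.01 after etoposide (6 lower, 1 higher), where the other 50 tested members had -3.15 and -4.02. The 7 genes made up 19.3 to 19.7% of the members' summed RNA CPM in cycling, 21.6 to 25.7% in the quiescent, 44.6 to 47.9% in irradiated and 58.6 to 61.5% in etoposide-treated libraries. Their shares did not overlap between states. The labels name total RNA and a depletion of rRNA, and whether polyadenylated RNA was also selected is not given in the sources used here, and the part of tailed transcripts in these counts was not tested.

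Quiescent cells lost a smaller part of their histone RNA. In RNA 27 of 57 members were lower than in cycling cells (10.4% of all tested genes were) and none was higher, with a median of -0.66, and in footprints 34 of 56 were lower (14.2%), with a median of -0.60. H2AC14 was the member with the deepest footprint loss. Its footprints were 106, 105 and 125 CPM in cycling and 25.8, 37.9 and 27.05 in quiescent libraries. The log2 fold change was -1.89 ± 0.15 in footprints (adjusted p = 2.20e-05, edgeR) and -0.73 ± 0.19 in RNA (adjusted p = 0.0172, edgeR). The difference between footprint and RNA changes, tested below, passed for no member in quiescent cells. H2BC14 changed by -0.95 in RNA and -1.08 in footprints on the log2 scale. H4C5 footprints were 920, 932 and 940 CPM in cycling and 969, 1029 and 875 in quiescent libraries, which overlapped, and H2AC6 footprints did not pass either (-0.28, adjusted p = 0.172). The RNA count rests on few libraries: it was 0 without cycling replicate 1, 11, 43 and 17 without quiescent replicates 1, 2 and 3, and 1 of 57 when the fit used these 2 states alone.

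Footprints followed the RNA in senescent cells, as the number of members called and the size of their changes show. Of 56 members tested among 11766 genes, 55 fell after irradiation (21.6% of all tested genes did) and 55 after etoposide (17.1%), and none rose. The medians were -3.05 and -3.99. Over the 54 members tested in both assays, the log2 fold changes in RNA and footprints had a Pearson correlation of 0.94 after irradiation and 0.95 after etoposide, described without a p because members share libraries and cycling controls. H2AC14 footprints were 1.42, 1.90 and 1.16 CPM in irradiated and 1.40, 1.55 and 1.55 in etoposide-treated libraries, so that the 2 groups overlapped, with log2 fold changes of -6.25 and -6.21 against cycling cells. H2BC14 footprints were 256, 194 and 255 CPM in cycling, 8.34, 4.56 and 6.67 in irradiated and 4.71, 3.10 and 4.14 in etoposide-treated libraries. H2BC12 was the 1 member not passing after etoposide, with 185, 190 and 275 CPM in cycling and 155, 152 and 168 in etoposide-treated libraries (-0.45 ± 0.20, adjusted p = 0.102, edgeR), and H2AC25 the 1 not passing after irradiation (-0.58, adjusted p = 0.0950).

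H2AC17 was seen almost only as footprints. It had 28 RNA counts over 13 libraries, also when strand was ignored, and 11169 footprint counts over 14 libraries. Its footprints were 148, 112 and 135 CPM in cycling, 72.6, 110 and 80.6 in the quiescent, 13.1, 13.7 and 18.3 in irradiated and 8.89, 9.61 and 10.4 in etoposide-treated libraries, with log2 fold changes of -3.14 and -3.77 in the senescent cells. It is named here after its values were seen.

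Whether footprints changed more than RNA was tested as an interaction in one edgeR model over both kinds of library, on 11715 genes of which 54 were members; this difference is called translational efficiency. No member passed for quiescent against cycling cells (0.00854% of all tested genes did in either direction; 3 members had an unadjusted p under 0.05 and DESeq2 called 1) or for irradiated against cycling cells (0.0512%; 6 members at an unadjusted p under 0.05, DESeq2 called 0). After etoposide 2 members, H2AC6 and H3C10, were lower (0.0427% of all tested genes were), and DESeq2 called 6. Between the senescent mean and quiescent cells 3 members were lower, H2AC6, H3C10 and H3C6 (0.0341%), and DESeq2 called 4.

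H2AC6 footprints were 1222, 1077 and 971 CPM in cycling, 974, 989 and 723 in the quiescent, 738, 760 and 689 in irradiated and 457, 541 and 506 in etoposide-treated libraries. They thus fell while the gene's RNA did not, with log2 fold changes of -0.58 ± 0.14 after irradiation and -1.12 ± 0.14 after etoposide (adjusted p = 0.00482 and 3.74e-05, edgeR). The ratio of footprint to RNA CPM for libraries of the same number was 5.98 and 6.33 for cycling cells, 4.94, 5.16 and 4.15 at quiescence, 3.63, 3.14 and 3.20 after irradiation and 1.75, 2.07 and 2.27 after etoposide, with no overlap between states. The interaction was -1.58 ± 0.21 after etoposide (adjusted p = 0.000321, edgeR) and -0.73 after irradiation (adjusted p = 0.363). Between senescent and quiescent cells it was -0.97 ± 0.17 (adjusted p = 0.0177, edgeR), a call lost without quiescent footprint replicate 2 (adjusted p = 0.159), and also without quiescent RNA replicate 3, quiescent footprint replicate 1 or etoposide footprint replicate 1.

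H3C10 footprints were 315, 244 and 351 CPM in cycling, 177, 203 and 187 in the quiescent, 22.0, 24.3 and 27.2 in irradiated and 9.24, 8.06 and 10.0 in etoposide-treated libraries. Irradiated and etoposide-treated libraries, which overlapped in RNA, were apart in footprints. The ratio of footprint to RNA CPM was 3.63 and 3.49 in cycling and 3.72, 2.99 and 5.99 in quiescent cells. It was 2.03, 2.09 and 2.26 in irradiated cells, where the interaction against cycling did not pass, and 0.931, 0.734 and 0.772 in etoposide-treated cells. The interaction was -2.32 ± 0.30 after etoposide (adjusted p = 0.000278) and -1.64 ± 0.24 between senescent and quiescent cells (adjusted p = 0.00148, edgeR), and passed under all 18 and 25 alternative fits. H3C6 footprints were 299, 356 and 268 CPM in the quiescent, 52.1, 48.7 and 66.9 in irradiated and 27.2, 28.5 and 28.8 in etoposide-treated libraries, with an interaction of -1.39 ± 0.21 between senescent and quiescent cells (adjusted p = 0.00275) and -1.16 after etoposide (adjusted p = 0.138, edgeR).

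**Figure D3:**
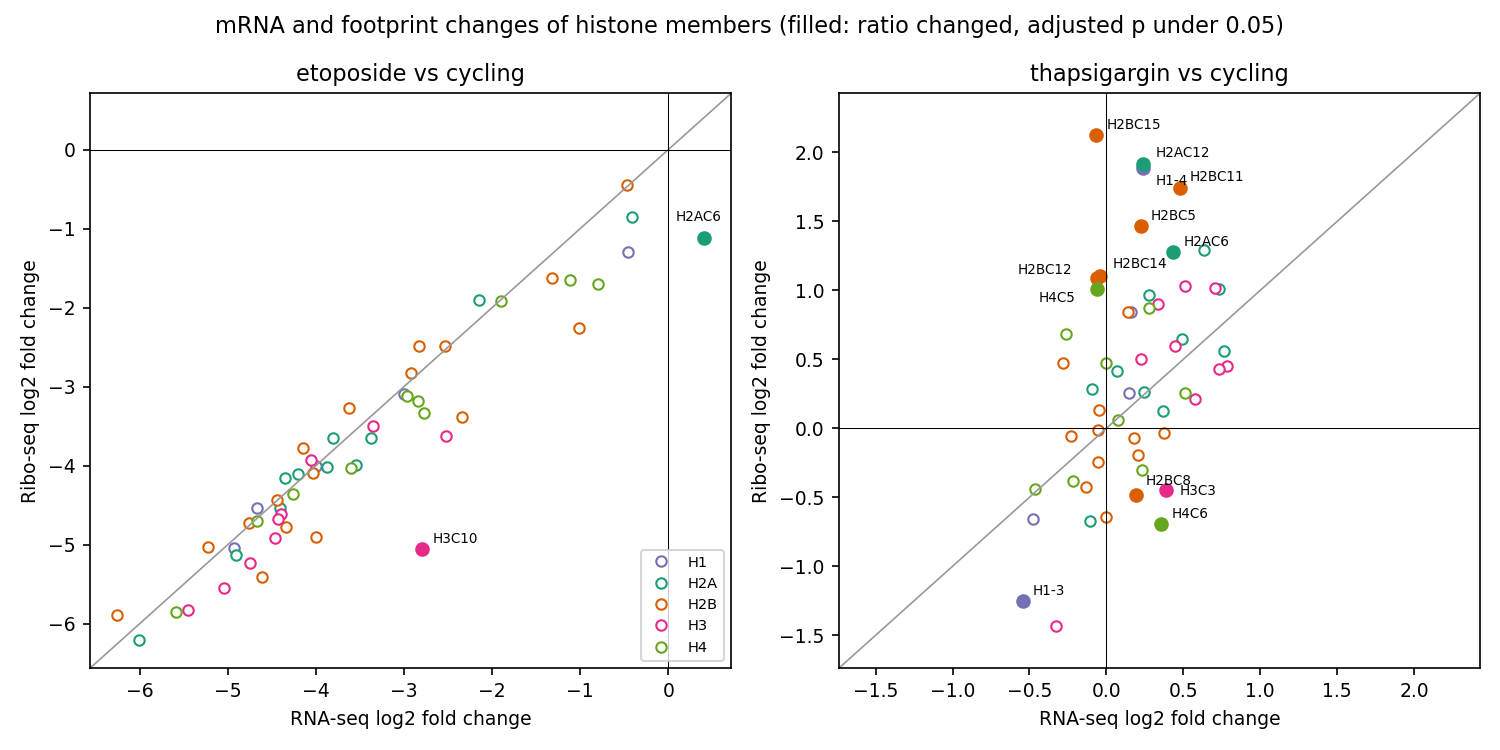
Log2 fold change in footprints against that in RNA for the 54 members tested in both, in etoposide-treated (left) and thapsigargin-treated (right) against cycling cells, coloured by family, with the line of equal change; filled points passed in translational efficiency. After etoposide H2AC6 and H3C10 lie farthest below the line, at interactions of -1.58 and -2.32.

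**Figure D4:**
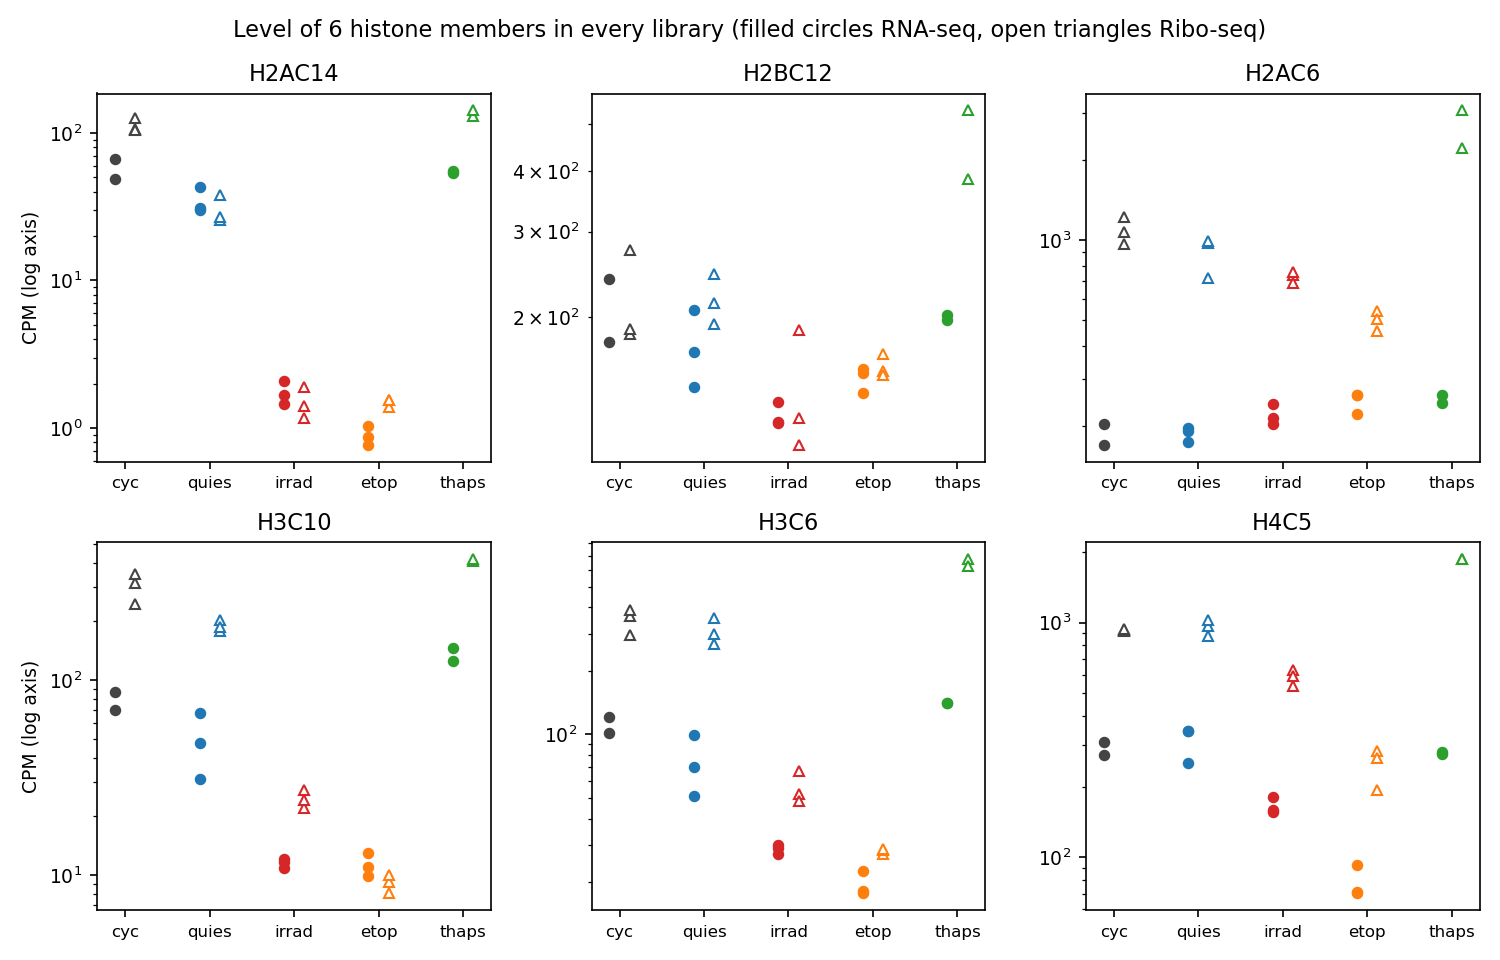
CPM on a log axis in each RNA-seq (filled circles) and Ribo-seq (open triangles) library of the 5 states for H2AC14, H2BC12, H2AC6, H3C10, H3C6 and H4C5. H2AC14 drops from 48.6 to 66.7 CPM in cycling RNA libraries to 0.767 to 1.02 CPM after etoposide, while H2AC6 RNA stays between 170 and 262 CPM in all 13 libraries.

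The 2 senescence inducers differed in how much histone RNA remained. Compared directly, 31 of 57 members had more RNA after irradiation than after etoposide (9.67% of all tested genes did) and none had less, with a median difference of 0.66, and 40 of 56 had more footprints (8.82%) and none had fewer, with a median of 0.99. H4C5 differed by 1.08 ± 0.14 in RNA and 1.25 ± 0.12 in footprints on the log2 scale (adjusted p = 0.000283 and 8.12e-05, edgeR), its footprints being 628, 593 and 536 CPM in irradiated and 284, 193 and 264 in etoposide-treated libraries. H1-4 differed by 1.04 ± 0.14 and 1.33 ± 0.20 (adjusted p = 0.000382 and 0.000784), with RNA at 65.4, 67.6 and 57.1 against 33.8, 25.6 and 33.4 CPM. H4C9 differed by 1.12 in RNA and 1.80 in footprints, and H2AC14 by 0.96 in RNA. None of the 7 genes of the polyadenylated list passed in RNA, although H1-2 (-0.33), H2BC12 (-0.31) and H2BC21 (-0.26) passed as lower after irradiation when the fit used these 2 states alone, and 4 did in footprints, H2AC6 among them (0.54, adjusted p = 0.0141). No member passed in translational efficiency (0% of all tested genes did in either direction; 12 members at an unadjusted p under 0.05, DESeq2 called 1). The RNA count was 18 and 19 without irradiated replicates 1 and 2 and 17 without etoposide replicate 2.

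Against quiescent cells, which had been held at contact inhibition, the senescent cells were also lower. Over the mean of the 2 inducers 54 of 57 members had less RNA than in quiescent cells (17.6% of all tested genes did) and 1, H2AC6, had more (16.6%), with a median of -2.67. In footprints 55 of 56 were lower (13.6%), with a median of -2.81. H2AC6 RNA was higher by 0.32 ± 0.10 (adjusted p = 0.0217, edgeR), a call lost without quiescent RNA replicate 2 (adjusted p = 0.0554) or 3 (adjusted p = 0.0792) or irradiated RNA replicate 2 (adjusted p = 0.0552), and its footprints were lower, with a log2 fold change of -0.57. This comparison shares its senescent libraries with the ones above.

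Thapsigargin-treated cells, compared with cycling cells, differed little in histone RNA and more in footprints. In RNA 5 members were higher (11.7% of all tested genes were), 2 were lower (12.8%) and 50 did not pass, so that both shares were below those of all genes. The higher members were H3C10, at 146 and 124 CPM against 86.8 and 70.1 (0.78 ± 0.26, adjusted p = 0.0432), and H2AC21, H2AC25, H2AC6 and H2AC8, by 0.43 to 0.76 on the log2 scale. H4C12, at 6.34 and 3.11 against 18.0 and 14.4 CPM, had a log2 fold change of -1.79 ± 0.28 (adjusted p = 0.000622, edgeR) and H4C11 one of -0.95. These RNA counts rest on single libraries: leaving out one left 1 to 3 members, with 2 and 1 without cycling replicates 1 and 2 and 3 without either thapsigargin library.

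In footprints 26 members were higher after thapsigargin (21.1% of all tested genes were) and 7 lower (23.6%), with a median of 0.42 against -0.08 over all genes. H2AC6 footprints were 3074 and 2214 CPM after thapsigargin, above every other library, and 1.28 ± 0.15 higher than in cycling cells on the log2 scale (adjusted p = 3.01e-05, edgeR). H1-4 had 1527 and 1707 CPM against 490, 347 and 473, and H2BC5 had 640 and 694 against 200, 205 and 318. Without cycling footprint replicate 3 the lower ones were 4 and the higher ones 25. Lower members were H1-1, H1-3, H2AC13, H2BC6, H2BC8, H3C3 and H4C6; H1-3 had 78.3 and 102 CPM against 201, 202 and 244 (-1.25 ± 0.16, adjusted p = 4.22e-05). In translational efficiency 9 members were higher (7.87% of all tested genes were) and 4 lower (12.9%). Without cycling RNA replicate 1 it was 4 higher and 5 lower, and over the other fits without one library 8 to 11 were higher and 1 to 5 lower. The higher ones were H2BC15 (2.14), H2AC12 (1.63), H1-4 (1.60), H2BC11 (1.22), H2BC5 (1.19), H2BC12 (1.10), H2BC14 (1.09), H4C5 (1.02) and H2AC6 (0.79 on the log2 scale), and the lower ones H4C6 (-1.10), H3C3 (-0.89), H1-3 (-0.76) and H2BC8 (-0.73). Members of one family thus differed in direction. The treatment and other differences between the libraries cannot be told apart here, since the thapsigargin libraries had the mapping shares given above, their medium was described differently, a characteristic of all 4 names protected fragments although the titles of 2 say RNA-seq, and their footprint files used another gene list than those of cycling cells; reads of the 2 titled RNA-seq lay on the strand of the other RNA libraries, with 0.400 to 0.421% of member reads on the opposite one, and the variant histone gene H3-3A was at 4.09 and 4.17 CPM in their RNA against 75.3 and 76.0 in cycling libraries.

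The median RNA change after etoposide differed from locus to locus, which was not tested. All 15 tested members from 27.8 to 27.9 Mb of chromosome 6 fell, with a median of -4.26, as did all 5 near 27.1 Mb (median -4.21). Of 28 members from 25.7 to 26.3 Mb, 27 fell and 1, H2AC6, rose, with a median of -3.49. In the larger chromosome 1 cluster 5 of 6 fell and H4C14 rose, with a median of -2.98. Of the distal chromosome 1 pair 1 of 2 fell, with a median of -2.02, and H4C16 on chromosome 12 stood at -1.12. Members with the TATA box had a median of -3.94 after etoposide (48 tested) against -0.43 without (4), members with CCAAT -4.00 (44) against -1.88 (8), and the H1 genes, which alone hold the H1 box, -4.00 (5) against -3.63 (47). Members with the octamer had a median of -4.03 (21 tested) against -3.35 without (31), members with the E2F-type site -4.44 (10) against -3.37 (42), and members with the HINFP core -2.46 (14) against -4.00 (38). Motif, family and locus overlap, and their parts were not tested.

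Genes that make, process and carry histone mRNA had smaller median changes than the members themselves. Of 20 genes of histone mRNA transcription and processing, 1 rose and 2 fell in RNA after irradiation (median -0.12) and 5 fell after etoposide (median -0.25). Of all tested genes 18.8% were lower and 16.2% higher after irradiation, and 17.8% lower and 16.8% higher after etoposide, so that 2 of 20 was below and 5 of 20 close to the general share; the lists that follow read against the same shares. SLBP, which binds the stem-loop, had 68.2 to 84.0 CPM in cycling, 62.9 to 72.0 in irradiated and 60.1 to 72.4 in etoposide-treated RNA libraries and did not pass (adjusted p = 0.418 and 0.260), but its footprints fell, with log2 fold changes of -0.40 ± 0.10 and -0.56 ± 0.09 (adjusted p = 0.00455 and 0.000426, edgeR). NPAT RNA did not pass either (-0.11 and -0.37, adjusted p = 0.611 and 0.0788). Among the genes called were CSTF2 (-0.51) and SRRT (-0.58) after irradiation and CASP8AP2 (-0.87) and the stem-loop exonuclease ERI1 (-0.54) after etoposide.

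Of 21 histone chaperones and deposition factors 9 fell and 1 rose after irradiation (median -0.27), and 10 fell and 1 rose after etoposide (median -0.51). ASF1B, an H3-H4 chaperone tied to proliferation, went from 26.3 to 27.6 CPM in cycling to 3.94 to 4.07 in irradiated and 3.21 to 5.66 in etoposide-treated libraries, and the FACT subunit SSRP1 had log2 fold changes of -1.18 and -1.45. Of 11 variant histone genes outside the clusters 7 and 10 fell (medians -0.74 and -0.88). The smallest adjusted p-values were those of CENPA, the centromeric H3 (-4.11 and -4.62), and H2AZ2 (-0.98 and -1.33), while H2AX (-1.92 and -1.87) and H2AZ1 (-1.63 and -1.56), named after their values were seen, fell further than H2AZ2. H2AJ alone rose with both inducers, by 0.74 ± 0.16 and 0.90 ± 0.16 (adjusted p = 0.00288 and 0.000792, edgeR). The 18 S phase genes fell nearly as a whole, 18 after irradiation (median -1.57) and 17 after etoposide (median -1.64), with MCM5 at -2.24 and -2.63; in quiescent cells 12 were lower (10.4% of all tested genes were), with a median of -0.82.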

How the data were processed

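RNA-seq and Ribo-seq gene counts from 27 IMR90 libraries were used. The authors deposited raw whole-number counts per gene for each library, with unassigned, ambiguous and multimapping reads in separate lines that were left out of library sizes. Per the submitters' processing notes, STAR 2.7.10b, bcl2fastq, DESeq2 1.36.0 and hg38 were used, with no settings given. Each file has columns without strand and for both strand settings. The column holding most reads was used: reverse for RNA-seq, forward for Ribo-seq.

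Of the 60534 gene identifiers common to all files, only the 19310 of protein-coding genes entered the fits. They were analysed with edgeR 4.0.16 in R 4.3.3 (low counts removed by filterByExpr, TMM scaling, quasi-likelihood test, Benjamini-Hochberg adjustment, threshold 0.05). One fit per assay covered all states, and one covered both assays with an interaction for translational efficiency. CPM are relative to the library's counts in the protein-coding genes that passed the filter, scaled by TMM. The fits were tested on simulated data. Same-numbered cycling and quiescent footprint libraries deviated together (correlations 0.168, 0.278 and 0.292), which was seen in the data and not in the labels. The fits reported did not model pairs, and a replicate block was run only as an alternative. Members, gene lists and tests were chosen with earlier results of these data known. Named with values are the 3 members of each family with the highest mean RNA CPM, the polyadenylated list, members called against most others, H2AC14, H2BC14, SLBP, NPAT and the 2 list genes with the smallest adjusted p per comparison; others are said to be named after their values were seen. Alternatives were other scalings, library totals, DESeq2 1.42.0, no filter, counts without strand, only the groups compared, a replicate block and leaving out each library.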

Additional observations from a re-analysis of the deposited data

Results flagged for a closer look

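The change against cycling cells differed between the 2 senescence inducers for 31 members in RNA and for 40 members in footprints, by edgeR's direct test of irradiated against etoposide-treated libraries, each with more left after irradiation in that fit. The change differed between footprints and RNA for 2 members after etoposide, H2AC6 and H3C10, and for 3 members between senescent and quiescent cells, H2AC6, H3C10 and H3C6, each lower in footprints. After thapsigargin it differed for 13 members, 9 higher and 4 lower in footprints than in RNA (4 and 5 without cycling RNA replicate 1), in libraries that also differed in their mapping shares and, for footprints, in the gene list used.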

How the results depend on the processing

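Counts of members that passed stayed within 1.5 times under most alternatives. Family sums as a percent of cycling never moved by more than their spread between libraries. Where 1 library was left out this says little, since removing 1 of 2 or 3 libraries can hardly move a mean by that much. For RNA in quiescent cells (27) the count was 1 with only the groups compared and 0 to 43 without one library. For RNA after thapsigargin (7) it was 1 to 3, and for RNA between inducers (31) 17 to 25, without one library. For translational efficiency, quiescent cells (0) gave 1 with DESeq2 and 1 without the low-count filter. Irradiated cells (0) gave 3 with only the groups compared, and etoposide (2) gave 6 with DESeq2 and 4 without the filter. The inducers compared (0) gave 1 with DESeq2 and 4 with only the groups compared, and thapsigargin (13) gave 8 with only the groups compared. The calls over all genes moved too. With only the groups compared they were 756 of 11326 for irradiated cells, 606 of 11130 between inducers and 1053 of 11521 after thapsigargin. The fit reported called 6, 0 and 2430 of 11715. DESeq2 called 6, 40 and 6 of 11715 for quiescent cells, etoposide and the inducers, against 1, 8 and 0 as reported. Without the filter 2 and 14 of 16194 were called for quiescent cells and etoposide. Between inducers, 35 members were higher and 3 lower in RNA after irradiation with only the groups compared (31 and 0), and 1 member rose in footprints after etoposide without the filter. H4C8 RNA after etoposide changed sign, to 0.093, with counts that ignore strand. The cause was not tested, except that fewer libraries or groups entered those fits.

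Of same-number correlations of deviations from the group mean, 10 of 23 exceeded 0.1 in RNA and 7 of 26 in footprints. Among comparisons with 3 pairs, all 3 did so only for footprints of cycling and quiescent cells (0.168 to 0.292), where the block left the same 34 members called; elsewhere the samples share only a number. With a replicate block the RNA counts were 53 after irradiation, 55 after etoposide and 19 at quiescence, and the footprint counts 55, 56 and 34. The 10 members without an RNA test had at most 7 RNA counts in any library, though H2AC17 had 11169 footprint counts; the parts of depth, low expression and reads with several places were not tested.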

Other observations

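Several members were seen in one assay and hardly in the other. H2AC7 had 23 RNA counts over 13 libraries and 265 footprint counts over 14, as H2AC17 had 28 and 11169. The reverse held for H4C11, with 1782 RNA and 86 footprint counts, and H4C12, with 2403 and 43. Each of these RNA totals was within 3 counts of the total that ignored strand. In footprints of senescent cells the 7 genes of the polyadenylated list made up 42.6 to 45.7% of the members' summed CPM after irradiation and 51.0 to 57.3% after etoposide, against 21.6 to 23.8% in cycling cells.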
